A study of Mus musculus with 7 samples.

Results

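The testis-specific serine kinases are a family of 6 genes, Tssk1, Tssk2, Tssk3, Tssk4, Tssk5 and Tssk6, which were followed in whole testis of mice without Phf13. The genes were chosen by symbol, and all 6 were measured among 18194 genes tested. They were represented by 9 probe sets that carry a single gene symbol, and the brightest probe set of each gene over all arrays was taken as its main one. In all there were 3 Phf13 knockout and 4 wild type arrays, each hybridised with RNA of whole testis from animals aged 15 to 20 weeks. The labels name no strain, allele, cell-type-specific deletion or treatment for either genotype, and they do not say whether each array came from its own animal, so the p-values speak only of the spread between these arrays, part of which may be technical.

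Testis-specific serine kinases are small protein kinases made mainly by haploid germ cells, the spermatids that follow meiosis and remodel into sperm. Mouse mutants have tied Tssk1 and Tssk2 together, as well as Tssk3 and Tssk6, to male fertility, and Tssk4 to the structure of the sperm tail. TSSK1 and TSSK2 phosphorylate the scaffold protein TSKS near the chromatoid body of spermatids, and TSSK6 acts when histones give way to protamines. The protein made from Phf13 reads chromatin through a PHD finger that recognises histone H3 methylated at lysine 4.

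Tssk1 and Tssk2 sit side by side on chromosome 16 between Dgcr2 and Ess2, in the RefSeq gene order of GRCm38.p6. The 100 bases that end just before each annotated start are shown for this adjacent pair because the 2 genes are neighbours and both had knockout arrays below all wild type arrays. Capitals mark TGACTTCA, read on either strand, and both windows are given 5′ to 3′ on the plus strand. They cover chr16:17894103-17894202 for Tssk1 and chr16:17898537-17898636 for Tssk2 (RefSeq, GRCm38.p6).
Tssk1: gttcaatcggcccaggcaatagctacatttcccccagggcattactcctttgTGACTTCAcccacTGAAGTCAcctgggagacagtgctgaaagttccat
Tssk2: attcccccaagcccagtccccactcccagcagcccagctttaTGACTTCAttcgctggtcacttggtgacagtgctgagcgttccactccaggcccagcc
The letters TGACTTCA were picked after these sequences had been seen. In Tssk1 they began 48 bases before the start and, on the opposite strand, 35 bases before it, and in Tssk2 they began 58 bases before the start. They occurred on either strand in 1.31% of 32851 RefSeq promoter windows of 250 bases. The full cyclic AMP response element TGACGTCA, present in 1.55% of windows, and the TATA motif TATAAA, present in 12.4%, were found in none of the 5 family members with a promoter entry (Tssk1, Tssk2, Tssk3, Tssk4 and Tssk6). The half-site TGACG, which is also part of the full element, was present in 17.8% of windows and among these 5 genes in Tssk6, 73 bases before its start. In a global alignment of the 100 bases, Tssk1 and Tssk2 shared 61 identical bases over 113 columns (54.0%), and the other pairs of these 5 genes lay between 40.6% and 50.5%.

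Phf13 served as a check of the genotype labels, and germ cell markers as a check of the tissue only. Phf13 averaged 5.86 ± 0.17 (SD, n = 3) on the log2 scale in knockout arrays, against 8.64 ± 0.08 (SD, n = 4) in wild type arrays. Marker genes of elongating spermatids were bright, with 15 of 15 above the median signal of tested genes. All values are the authors' deposited log2 signals, with array medians between 5.01 and 5.08, and array data carry no read depth, so the number of arrays limits the precision. As a guide to dim probe sets only, Tssk5 lay at percentile 46.4 of mean signal over all genes, and the main probe sets of the other members lay at percentiles 88.5 to 98.6. Probes differ in brightness, so these percentiles do not rank the transcripts.

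All 6 kinase genes had a lower mean in knockout than in wild type testis, by small amounts, and Tssk2 alone passed the test. A gene is said to rise or fall where limma's p, adjusted over all 18194 genes by the Benjamini-Hochberg method, was under 0.05. By that rule 1 of the 6 members fell and 0 rose, against 7.05% of all genes that fell and 9.07% that rose. At an unadjusted p under 0.05 there were 3 members, Tssk1, Tssk2 and Tssk4. The median log2 fold change of the family was −0.17, with single values from −0.27 to −0.13, and the median of all genes was −0.045. A negative fold change was seen in 59.9% of all genes. Every knockout array lay below every wild type array for 4 members, Tssk1, Tssk2, Tssk4 and Tssk6, and for 15.2% of all genes. In bulk tissue, fewer cells of a type and less RNA per cell cannot be told apart.

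**Figure D1:**
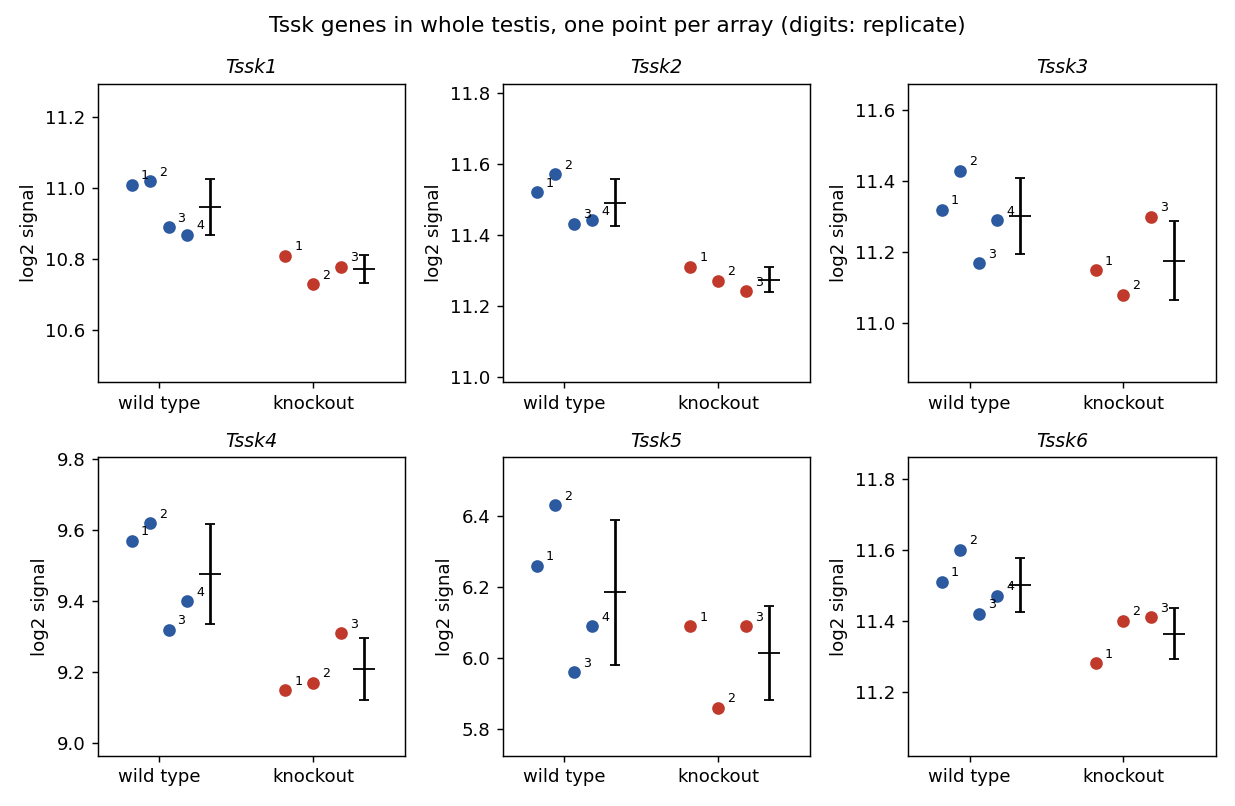
Log2 signal of the main probe set of each Tssk gene (vertical axis, spanning the same width in every panel) in each wild type (blue) and knockout (red) array, with the genotype mean and SD in black and the replicate number beside each point. Knockout points lie below all wild type points for Tssk1, Tssk2, Tssk4 and Tssk6, and wild type 2 is the highest array in all 6 panels.

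Tssk2 fell. Knockout arrays read 11.31, 11.27 and 11.24 on the log2 scale, and wild type arrays read 11.52, 11.57, 11.43 and 11.44. The genotypes did not overlap, and 0.12 separated the highest knockout array from the lowest wild type array. In the fit across all genes the log2 fold change was −0.22 (SE 0.06 with limma, adjusted p = 0.0471), a level 1.16-fold lower, with a 95% interval, not adjusted for the number of genes, of −0.36 to −0.08. An exact two-sided permutation test gave p = 0.0286, the smallest possible with 35 ways to divide 7 arrays into 3 and 4. The call was narrow: with any 1 of the 7 arrays left out, limma's adjusted p lay between 0.0548 and 0.130. It was 0.0768 with quantile normalization, where 7.74% of all genes fell and 0 members passed. With trend and robust settings, where 8.92% of genes fell, Tssk1 passed beside Tssk2.

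The numbers that open the array titles have no stated meaning, but arrays fall into 3 groups that share the first digits of that number, each with both genotypes: the first holds knockout 1 and wild type 1, the second knockout 2 and wild type 2 and 3, the third knockout 3 and wild type 4. Within these groups Tssk2 was lower in knockout by a log2 difference of −0.21, −0.23 and −0.20. With the groups as a block its log2 fold change was −0.22 again, and limma's adjusted p was 0.0788, so that 0 members passed, against 5.03% of all genes that fell in that fit. All 6 members were lower in knockout in the first group (median difference −0.21) and in the second (−0.23). In the third, 4 of 6 were lower and the median was −0.08.

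Tssk1, the gene next to Tssk2, did not pass. In knockout testis the log2 signals of Tssk1 were 10.81, 10.73 and 10.78, against 11.01, 11.02, 10.89 and 10.87 in wild type testis. No knockout array reached a wild type array, and wild type 1 and 2 stood above wild type 3 and 4. The fitted log2 fold change was −0.17 (SE 0.06 with limma, adjusted p = 0.100; exact permutation p = 0.0571), with a 95% interval of −0.32 to −0.03.

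Tssk4, the kinase tied to the sperm tail, had the largest mean difference of the 6 main probe sets. Tssk4 read 9.15, 9.17 and 9.31 (log2 signal) in knockout 1 to 3, against 9.57, 9.62, 9.32 and 9.40 in wild type 1 to 4. Knockout 3 and wild type 3 lay only 0.01 apart, which is the step of the deposited values. Knockout minus wild type gave a log2 fold change of −0.27 (SE 0.09 with limma, adjusted p = 0.0741; exact permutation p = 0.0571), with a 95% interval of −0.47 to −0.06. With 1 array left out it passed in 1 of 7 fits, without wild type 3 (−0.32, limma adjusted p = 0.0481). Over the 7 fits it ran from −0.32 to −0.22, with adjusted p up to 0.186, and with the title-number block the adjusted p was 0.118.

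Tssk4 had 2 further, dim probe sets, whose differences had opposite signs. Probe set 1438486_at had means of 4.24 in knockout and 4.67 in wild type arrays (log2 fold change −0.44, SE 0.18, limma adjusted p = 0.173 over all probe sets). Probe set 1443810_at had means of 2.93 and 2.86 (log2 fold change 0.08, SE 0.08, adjusted p = 0.600 in the same limma fit). The genotype means of both lay below the array medians, so whether they measure transcript above background was not shown. On 1438486_at wild type 1 read highest, at 5.17, while wild type 4 and knockout 3 both read 4.34.

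Tssk6, which acts in the exchange of histones for protamines, gave a smaller difference. Knockout arrays read 11.28, 11.40 and 11.41 on the log2 scale, and wild type arrays read 11.51, 11.60, 11.42 and 11.47. The genotypes did not overlap but again came within 0.01 of each other, at knockout 3 and wild type 3. Its log2 fold change came to −0.14 (SE 0.07 with limma, adjusted p = 0.196), with a 95% interval of −0.29 to 0.02.

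Tssk3, which lies on chromosome 4 as does Phf13, overlapped between genotypes on its main probe set. In knockout testis the log2 signals of Tssk3 were 11.15, 11.08 and 11.30, against 11.32, 11.43, 11.17 and 11.29 in wild type testis, so that knockout 3 exceeded wild type 3 and 4. In the fit across all genes the log2 fold change was −0.13 (SE 0.08 with limma, adjusted p = 0.316), with a 95% interval of −0.31 to 0.06. Its main probe set carries the suffix _s_at, which Affymetrix gives to probe sets that can match more than one transcript.

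The other probe set of Tssk3, 1432397_at, was dim and did not overlap between genotypes. Knockout arrays read 4.33, 4.43 and 4.34 on the log2 scale, and wild type arrays read 4.80, 4.58, 4.70 and 4.69. The fitted log2 fold change was −0.33 (SE 0.07 with limma, adjusted p = 0.0296 over all 45101 probe sets, of which 2.89% fell). This probe set too was dimmer than the array medians. Averaged with the main probe set, it gave Tssk3 a log2 fold change of −0.23 (adjusted p = 0.0290 in a limma fit on probe set means, where 6.75% of genes fell), so the call for Tssk3 depends on which probe set is read.

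Tssk5, whose probe set had a mean signal below the median of tested genes but above the array medians, varied between arrays of both genotypes. Knockout arrays read 6.09, 5.86 and 6.09 on the log2 scale, and wild type arrays read 6.26, 6.43, 5.96 and 6.09, and the genotypes overlapped. Knockout minus wild type gave a log2 fold change of −0.17 (SE 0.12 with limma, adjusted p = 0.335), with a 95% interval of −0.44 to 0.10. The intervals of Tssk3, Tssk5 and Tssk6 include 0 as well as falls as large as that of Tssk2.

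**Figure D2:**
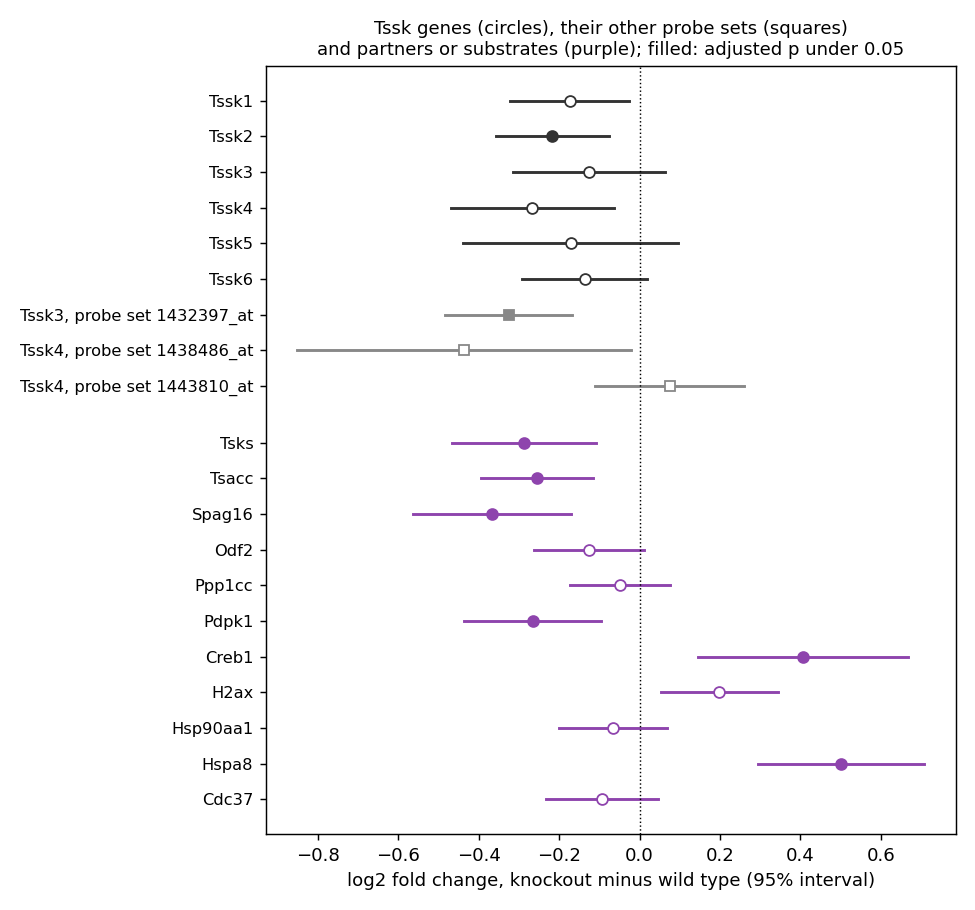
Log2 fold change, knockout minus wild type, with its 95% interval (horizontal axis) for the 6 Tssk genes (black circles), their 3 other probe sets (grey squares) and 11 partner and substrate genes (purple). Filled symbols passed limma's adjusted p of 0.05, which were Tssk2, the second Tssk3 probe set, Tsks, Tsacc, Spag16, Pdpk1, Creb1 and Hspa8.

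Proteins that work with these kinases were measured through 11 of 12 listed genes, and 4 of them fell, 2 rose and 5 did not pass. Their median log2 fold change was −0.09. Of all genes 7.05% fell and 9.07% rose. In the fit with the title-number block, where 5.03% of all genes fell, 2 partner genes fell (Tsks and Spag16) and 1 rose (Hspa8). The number past the threshold, 6 with all arrays, dropped to 2 when knockout 1 was left out, 3 when knockout 2 was, 0 when knockout 3 was, and 1 when either wild type 1 or wild type 2 was. Over all genes it dropped from 2934 to 175 when knockout 3 was left out.

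Tsks, the testis-specific substrate that anchors TSSK1 and TSSK2, fell. In knockout testis the log2 signals of Tsks were 9.25, 9.01 and 9.10, against 9.44, 9.40, 9.30 and 9.49 in wild type testis, with no overlap. Its log2 fold change came to −0.29 (SE 0.08 with limma, adjusted p = 0.0412, and 0.0396 with the title-number block), a level 1.22-fold lower. With 1 array left out in turn, Tsks passed in 2 of 7 fits, Tsacc and Spag16 in 3 each, Pdpk1 and Creb1 in 1 each and Hspa8 in 6.

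Tsacc encodes a co-chaperone that activates TSSK6, and it fell as well. Tsacc read 11.02, 11.06 and 10.97 (log2 signal) in knockout 1 to 3, against 11.32, 11.33, 11.22 and 11.22 in wild type 1 to 4, and 0.16 separated the groups. In the fit across all genes the log2 fold change was −0.26 (SE 0.06 with limma, adjusted p = 0.0286, and 0.0523 with the block), 1.19-fold lower.

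Spag16, whose product belongs to the central apparatus of the sperm tail and is phosphorylated by TSSK2, had the largest fall of the list. Knockout arrays read 9.51, 9.74 and 9.58 on the log2 scale, and wild type arrays read 9.90, 9.98, 9.89 and 10.14. All knockout arrays were below all wild type arrays, and the log2 fold change came to −0.37 (SE 0.09 with limma, adjusted p = 0.0266). A further probe set of Spag16, 1431732_at, gave −0.31 (limma adjusted p = 0.0421 over all probe sets), while the dim probe sets 1431958_at (−0.16, adjusted p = 0.190) and 1441708_at (−0.01, adjusted p = 0.947) did not pass. With the mean of its 4 probe sets Spag16 had a log2 fold change of −0.21 and no longer passed (limma adjusted p = 0.0543).

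Pdpk1, a kinase that can phosphorylate the activation loop of TSSK3, fell on its main probe set by 0.27 on the log2 scale (SE 0.07, limma adjusted p = 0.0461, and 0.0567 with the block). Its other probe set, 1415729_at, had a log2 fold change of 0.10 (adjusted p = 0.491 in the limma fit over all probe sets). The 2 probe sets of this gene therefore disagreed in sign. Odf2, an outer dense fibre protein of the sperm tail that TSSK4 binds and phosphorylates, had a log2 fold change of −0.13 (SE 0.06, limma adjusted p = 0.176). Its knockout arrays lay below all wild type arrays, as for 15.2% of all genes. Of its other probe sets, 1435216_a_at (−0.12) did not overlap either. The probe sets 1454735_at (−0.17), 1439918_at (−0.20) and 1444101_at (−0.09) overlapped, and none of these passed.

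Hspa8, a chaperone made in many cell types, rose. In knockout testis the log2 signals of Hspa8 were 10.94, 11.00 and 10.96, against 10.39, 10.29, 10.66 and 10.52 in wild type testis, and every knockout array was above every wild type array. The fitted log2 fold change was 0.50 (SE 0.09 with limma, adjusted p = 0.0144, and 0.0315 with the block), and the adjusted p was 0.0563 without knockout 3. Its main probe set has the suffix _x_at, which marks probes that can bind other transcripts. In the limma fit over all probe sets, 1455789_x_at gave 0.48 (adjusted p = 0.0375) and 1420622_a_at 0.40 (adjusted p = 0.053). The dim probe set 1431182_at of Hspa8 gave 0.20 (limma adjusted p = 0.186).

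Creb1, a transcription factor that TSSK4 can phosphorylate, rose by 0.41 on the log2 scale on its main probe set (SE 0.11, limma adjusted p = 0.0459, and 0.0603 with the block). Its 5 other probe sets lay between −0.17 and 0.17, and none of them passed in the limma fit over all probe sets. Ppp1cc, a phosphatase subunit found with TSKS and TSSK1, had a log2 fold change of −0.05 (limma adjusted p = 0.555) on its main probe set and 0.51 (limma adjusted p = 0.0210) on the other, 1452046_a_at. The histone variant gene H2ax (0.20) and the chaperone genes Hsp90aa1 (−0.07) and Cdc37 (−0.09) did not pass.

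Among 12 other kinases of male germ cells 2 fell, 0 rose and 10 did not pass. Their fold change was negative in 10 of 12, with a median of −0.14. Of all genes 7.05% fell, 9.07% rose and 59.9% had a negative fold change. Aurkc, a meiotic Aurora kinase, fell by 0.76 (SE 0.06, limma adjusted p = 0.00278), and the tyrosine kinase gene Fer fell by 0.46 (SE 0.07, limma adjusted p = 0.0116). Stk33 (−0.20) and the calcium-dependent kinase gene Camk4 (−0.24) did not pass. Of 16 AMPK-related kinases, which share the wider kinase group of the Tssk genes, 2 fell (Hunk, −0.49, and Brsk2, −0.27), 1 rose (Nuak2, 0.52) and 13 did not pass. Their fold change was negative in 5 of 16, with a median of 0.09. With the title-number block 3 fell and 1 rose, with Brsk1 (limma adjusted p = 0.0372) past the threshold and Brsk2 (0.0697) not. None of the AMPK-related kinases passed without knockout 3, without wild type 2 or without wild type 4, and 1 did without wild type 1.

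The signals of the 6 kinase genes were positively correlated with each other across the 7 arrays. Pearson correlations of the 15 pairs of members ran from 0.67 (Tssk2 with Tssk3) to 0.96 (Tssk1 with Tssk2), with a median of 0.83. After each genotype's mean was subtracted they ran from 0.43 to 0.89, with a median of 0.78, and Tssk1 with Tssk2 (0.876) was no longer the highest, behind Tssk1 with Tssk5 (0.892), Tssk3 with Tssk4 (0.890) and Tssk3 with Tssk5 (0.877). These are descriptions over 7 arrays that share hybridisation and normalization, and whether probes of Tssk1 and Tssk2 also bind the transcript of the other gene was not tested. Wild type 2 was the highest array for 6 of 6 members, and the median deviation from each gene's mean was 0.18 there, 0.13 in wild type 1, −0.03 in wild type 3 and 0.03 in wild type 4. In the knockout arrays it was −0.09, −0.16 and −0.04.

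The mean of the family over the 7 arrays was compared with 8454 genes brighter than the median, with symbols shaped like predicted or clone names left out. That filter also dropped named genes whose symbol opens with a letter and a digit, such as H2ax. The 5 most similar genes were Pacs2 (Pearson r = 0.994), Ankrd61 (0.988), Cfap126 (0.988), Ropn1 (0.987) and Dgcr2 (0.987). They are the highest of 8454 correlations over only 7 arrays. How often such values would arise by chance was not tested, and neither was shared regulation. Dgcr2 is the protein-coding gene next to Tssk1 on chromosome 16. Dgcr2 read 8.86, 8.83 and 8.96 (log2 signal) in knockout 1 to 3, against 9.11, 9.26, 8.98 and 9.05 in wild type 1 to 4, with a log2 fold change of −0.22 (SE 0.08, limma adjusted p = 0.0957). Ess2, the gene on the far side of Tssk2, had a log2 fold change of −0.26 (SE 0.10, limma adjusted p = 0.129). Its correlation with the mean of the family was lower than that of Dgcr2 (Pearson r = 0.734). None of the 5 most similar genes passed the threshold.

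Spermatid markers had negative fold changes throughout, and many markers of somatic cells rose. Of all genes 7.05% fell, 9.07% rose and 59.9% had a negative fold change. Of 15 round spermatid genes 3 fell, 0 rose and 12 did not pass, and all 15 had a negative fold change, with a median of −0.26. Zpbp2, which encodes an acrosomal protein, fell by 0.28 (SE 0.06, limma adjusted p = 0.0235). Of 15 elongating spermatid genes 4 fell, 0 rose and 11 did not pass, with all 15 negative and a median of −0.08. Spem1, needed to shed spermatid cytoplasm, fell by 0.32 (SE 0.09, limma adjusted p = 0.0413). In the fit with the title-number block 1 round and 0 elongating spermatid genes passed. Without knockout 1, knockout 3, wild type 1 or wild type 2, none of either list did. The round and elongating lists had 4 and 0 without knockout 2, 4 and 2 without wild type 3, and 2 and 1 without wild type 4. Of 14 pachytene spermatocyte genes 2 fell, 0 rose and 12 did not pass (median −0.09), with 0 past the threshold without knockout 3 or without wild type 1, 1 without knockout 1, wild type 2 or wild type 4, 2 without wild type 3 and 3 without knockout 2. Of 9 spermatogonial genes 0 passed limma's threshold (median 0.03), with 1 at an unadjusted p under 0.05.

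Among somatic markers, 11 of 12 Sertoli cell genes rose (median 0.63), as did 5 of 7 Leydig cell genes (median 0.93). So did 5 of 10 macrophage genes (median 0.51) and 4 of 8 peritubular myoid genes (median 0.50). None of the genes of these lists fell, and of all genes 9.07% rose and 7.05% fell. Of 8 endothelial genes, all dimmer than the median gene, 0 rose and 0 fell in limma's fit (median 0.09), with 0 at an unadjusted p under 0.05. The numbers that rose were 4, 3, 0 and 3 for the Sertoli, Leydig, macrophage and myoid lists without knockout 3, and 9, 6, 2 and 4 with the title-number block. For the macrophage list the number was 1 without knockout 1, wild type 1, wild type 2 or wild type 4. The summed signal of the Sertoli list, on a log2 scale, was 14.11 to 14.25 in knockout and 13.37 to 13.74 in wild type arrays, and that of the Leydig list was 12.97 to 13.30 and 12.03 to 12.57. The summed signal of the 6 kinase genes was 13.24 to 13.31 in knockout and 13.34 to 13.53 in wild type arrays. Wild type 2, where the kinase genes were highest, had the lowest median deviation of the Sertoli list (−0.45) and of the Leydig list (−0.71). Among the knockout arrays the order was the same for all 3 lists. Knockout 2 was lowest for the kinase genes (−0.16), the Sertoli list (0.25) and the Leydig list (0.33), and knockout 3 was highest (−0.04, 0.45 and 0.82). For the round and elongating spermatid lists, knockout 3 was instead the lowest knockout array (−0.16 and −0.08). Knockout 2 was the highest knockout array for the round list (−0.07). The part of these somatic markers in the result for the kinase genes was not tested.

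**Figure D3:**
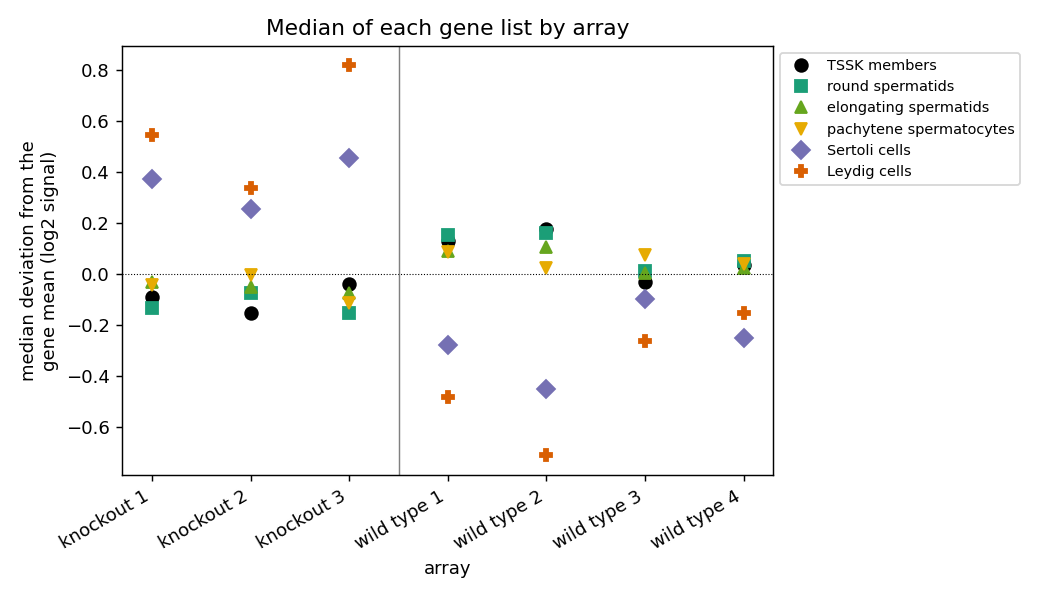
Median deviation of each gene list from its genes' means over 7 arrays (vertical axis, log2 signal) in each array (horizontal axis), with knockout arrays left of the line. The Tssk genes (black) lie near the spermatid lists in most arrays, from −0.16 to 0.18, while the Sertoli and Leydig lists are positive in all 3 knockout arrays and negative in all 4 wild type arrays, from −0.71 in wild type 2 to 0.82 in knockout 3.

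When each array was centred on the median of the 30 spermatid markers, the difference between genotypes in the kinase genes was near 0. The family's median log2 fold change became 0.02, and 0 members passed limma's threshold, where 0.528% of all genes fell. After centring, the round spermatid list had a median log2 fold change of −0.06 and the elongating list 0.12. How the kinase genes compare when centred on either list alone was not tested. Tssk2 had a log2 fold change of −0.02 (95% interval −0.19 to 0.15) and Tssk4 of −0.07 (−0.26 to 0.11). Tssk1 came to 0.02, Tssk3 to 0.07, Tssk5 to 0.02 and Tssk6 to 0.06. This scaling, chosen after the data had been seen, adds the same 0.20 to the fold change of every gene, so the changes of sign follow from its size and are no property of single genes. In this fit 3466 of all 18194 genes rose and 96 fell. Of the partners, Hspa8, Creb1 and H2ax were past the threshold, all higher in knockout. Tsks (−0.09), Tsacc (−0.06) and Spag16 (−0.17) were not.

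**Figure D4:**
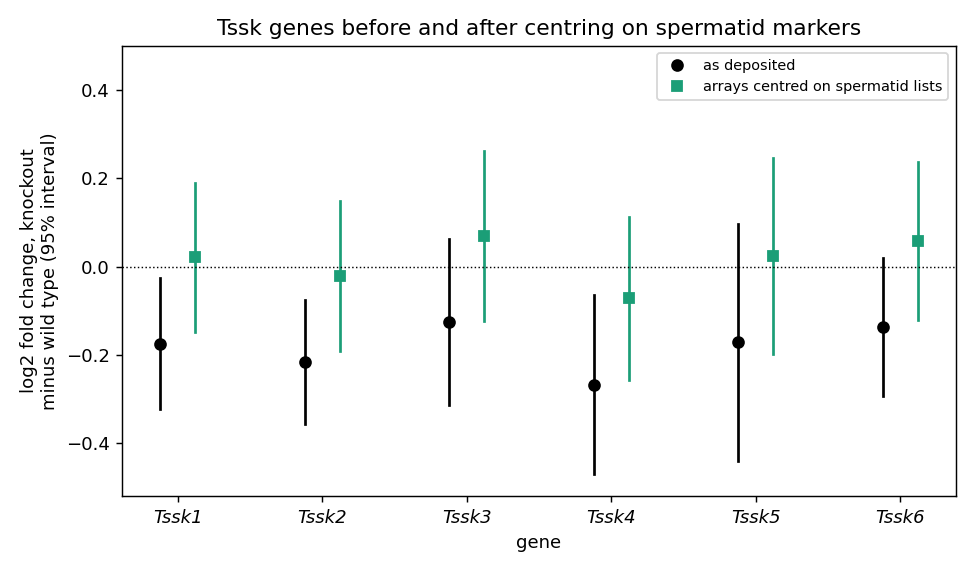
Log2 fold change, knockout minus wild type, with its 95% interval (vertical axis) for each Tssk gene, from the deposited values (black) and with each array centred on the median of 30 spermatid markers (green). The black values run from −0.27 to −0.13 and the green ones from −0.07 to 0.07, with every green interval including 0.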

How the data were processed

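Total RNA of whole testis (2 ug per array) was labelled with biotin for Affymetrix arrays, per the labels' protocols. The authors deposited 1 table of log2 signals for 45101 probe sets on 7 arrays. The submitters' processing notes name Affymetrix Expression Console 1.4.1, and how it summarised and normalized the probes is not given in the sources consulted. The log2 scale was read from the range of the values, 1.59 to 13.92. No normalization or detection call was added.

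Names came from a platform annotation of the probe sets, in which 34958 had 1 symbol, 932 several and 9211 none. The genotype contrast was fitted by lmFit and eBayes of limma 3.58.1 (R 4.3.3, two-sided, no covariate), with Benjamini-Hochberg adjustment over 18194 genes, and other probe sets were read from a fit on all of them. The 95% intervals are unadjusted. The fit was tested on simulated data. Exact permutation tests used the 35 divisions of the arrays into 3 and 4. Neither they nor the main fit took account of the title-number groups, whose meaning the labels do not state.

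The members, the 13 lists and the tests were chosen with earlier results of these data known. The text names all members and their partners, Phf13, up to 4 genes of each other kinase list and up to 2 of each cell type list by smallest p, and the 5 most similar genes. Ess2, and Dgcr2 as a neighbour, were named after their values were seen. Of 148 listed genes 143 were measured, H2afx as H2ax. The replicate numbers in the titles were not taken as pairs, since deviations from the genotype means correlated at 0.182, 0.103 and −0.143 for same-numbered arrays. For title-number groups they correlated at 0.103 to 0.319 across genotypes. Pairs of arrays across genotypes outside these groups lay between −0.166 and 0.0227. Alternatives were blocks, quantile normalization, median centring, leaving out dim genes, the choice of probe set, trend and robust settings, array weights and left-out arrays.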

Additional observations from a re-analysis of the deposited data

Results flagged for a closer look

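In 43 wild type groups of 4 arrays, each a probe set of a kinase, a partner gene or Phf13, 3 had 1 array far from the others, where chance flags about 1 group in 20. For Creb1 probe set 1421582_a_at, wild type 2 read 5.70 against 5.36 to 5.38 in the other wild type arrays. For Creb1 probe set 1452529_a_at, wild type 4 read 4.62 against 4.74 in each of the others. For Cdc37 probe set 1416820_at, wild type 3 read 5.23 against 5.24 in each of the others, a gap of 1 step of the deposited values. No main probe set of a kinase gene was among them.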

How the results depend on the processing

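The number of kinase genes past the threshold, 1 with all arrays, was 0 with the title-number block, 0 with the replicate block, 0 with quantile normalization, 0 with adjustment over all probe sets, 0 without knockout 3 and wild type 4, and 0 when centred on spermatid markers. It was 2 with trend and robust settings (Tssk1 and Tssk2), where 1623 of 18194 genes fell. It was also 2 without the dimmest 50% of genes (Tssk2 and Tssk4), where 1737 of 9099 genes fell. With the mean of all probe sets it was 2 as well (Tssk2 and Tssk3), where 1228 of 18194 genes fell. With 1 array left out it lay between 0 and 1. Tssk2 was past the threshold in 6 of 12 other alternatives and Tssk5 and Tssk6 in 0, and the adjusted p of Tssk2 ran from 0.0160 to 0.859 over them. The family's median log2 fold change lay between −0.22 and −0.13 with 1 array left out and moved to 0.0225 when centred on spermatid markers. With the replicate block it was −0.20, and the log2 fold change of Tssk2 was −0.23 with an adjusted p of 0.0917. Partners past the threshold, 6 with all arrays, numbered 3 with the title-number block, 3 with the replicate block, 3 with all probe sets, 3 centred on spermatid markers, 0 without knockout 3 and wild type 4, and 0 to 5 with 1 array left out. All genes past it numbered 2934, 175 to 2574 with 1 array left out and 4 without knockout 3 and wild type 4. Median centring moved the split of all genes from 1651 rises and 1283 falls to 1549 and 1680, the replicate block to 1634 and 660, and spermatid centring to 3466 and 96. Spermatid centring adds 0.195 to every fold change, which by itself turns the sign of Tssk1 (0.0213), Tssk3 (0.0696), Tssk5 (0.0238), Tssk6 (0.0588), Odf2 (0.0688), Ppp1cc (0.15), Hsp90aa1 (0.13) and Cdc37 (0.10). Signs also turned under the mean of probe sets for Ppp1cc (0.23, adjusted p = 0.0454) and under quantile normalization for Hsp90aa1 (0.0037). The cause of the other changes was not tested. Tssk5 is left out without the dimmest 50% of genes.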
